A study of Homo sapiens with 5 samples.

Results

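The enzymes that attach ubiquitin to proteins and those that remove it were examined in HL-60 cells given decitabine for changes in translation efficiency, that is, in how much ribosome-protected mRNA a gene had for its total mRNA. The members were the genes of the analysed table whose names begin with UBE1 to UBE4, USP and a digit, OTUB, OTUD, UCHL or JOSD, or are UBA1 to UBA7. There were 69 of them among 6309 genes: 6 activating enzymes (UBA), 26 conjugating enzymes (UBE2), 5 ligases of the UBE3 and UBE4 families and 32 deubiquitinases. The deubiquitinases were 29 USP genes, OTUD5, OTUD6B and UCHL3; no JOSD gene was analysed here. RefSeq lists 36 protein-coding UBE2 genes and, without the USP17L gene copies, 67 protein-coding symbols of the deubiquitinase pattern, so the values below describe the genes that entered the table and not the whole families.

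HL-60 is an established human promyelocytic leukaemia cell line, labelled wild type here, and all samples came from it. Decitabine, a deoxycytidine analogue that traps DNA methyltransferases, was added in 3 doses of 100 nM, the first at the start and the others after 24 and 48 hours; control cells received DMSO, and both were lysed at 72 hours. Total RNA libraries number 2 for each treatment in the labels, and the protected fragments form 1 library, pooled from barcoded samples. The deposited table has 1 model coefficient per gene for the whole comparison and no value for any library, so values by sample cannot be shown, the depth of each library is unknown, and no SD or n stands beside a value. All 10 myeloid precursor markers listed for HL-60, MPO and ELANE among them, were in the table, and none of 24 listed markers of erythroid, megakaryocytic, lymphoid, epithelial or fibroblast cells was.

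Ubiquitin is a small protein that is joined to other proteins in a cascade. An E1 enzyme activates it with ATP, an E2 conjugating enzyme takes it over on a cysteine, and an E3 ligase brings the loaded E2 to the substrate. Chains of ubiquitin can send a protein to the proteasome or change its location and partners, and deubiquitinases cut them off again or recycle them. Related modifiers such as SUMO, NEDD8 and ISG15 use cascades of the same kind, and some of the UBA and UBE2 genes serve these.

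By the authors' deposited table, none of the 69 genes passed an adjusted p below 0.05, which 0.808% of all genes did. Without adjustment, 8 members had a p below 0.05 and all 8 were higher with decitabine; 8.35% of all genes were higher and 1.95% lower by that rule in the authors' deposited table. The 8 genes are 11.6% of the members, beside 10.3% of all genes in either direction, so the share was near the background. They were the conjugating enzymes UBE2N, UBE2W, UBE2Z and UBE2J2, the ligase UBE3A and the deubiquitinases USP24, USP33 and USP7. USP24 came closest to the threshold, with an adjusted p of 0.0535.

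Values above 0 stand for higher translation efficiency with decitabine, and the coefficient was taken as a natural log, although the log base is not stated. Errors are standard errors implied by each coefficient and its p-value, and intervals are 95% intervals from them. They hold no more than the error in the authors' model. Wells were seeded in duplicate, with no statement on whether from separate cultures, and how the duplicates entered the model is not given. It is therefore unknown what variation the p-values measure, and any spread between these samples may be technical.

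Conjugating enzymes and deubiquitinases had almost the same median, and the sign of the small difference between them depended on the setting. It was 0.14 for the 26 UBE2 genes and 0.14 for the 32 deubiquitinases, a difference of -0.00095 (UBE2 minus deubiquitinases), in coefficients of the authors' deposited table. The median of all 6309 genes was 0.09, so the medians of both classes lay 0.05 above it. Of the UBE2 genes 19 were above 0 and 15 above the median of all genes; of the deubiquitinases 26 were above 0 and 22 above that median. Across all genes, 65.0% of coefficients were above 0. When every UBE2 gene was set against every deubiquitinase, the UBE2 gene had the higher coefficient in 48.1% of pairings. Genes are not replicates and were chosen by name, so these figures describe the classes and carry no test. The UBE2 median moved when members were left out. Without the NEDD8 enzymes UBE2M and UBE2F and the catalytically inactive UBE2V2, it was 0.13 above the median of all genes. Without the least precise 25% of genes, it was 0.15 above the median of the genes left. Without the least precise 50%, a filter added after the data were seen, it was 0.0016 above the median of the genes left. The difference of UBE2 minus deubiquitinases was 0.078, 0.10 and -0.04 in these settings, and -0.28 in medians of z, the coefficient over its error.

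**Figure D1:**
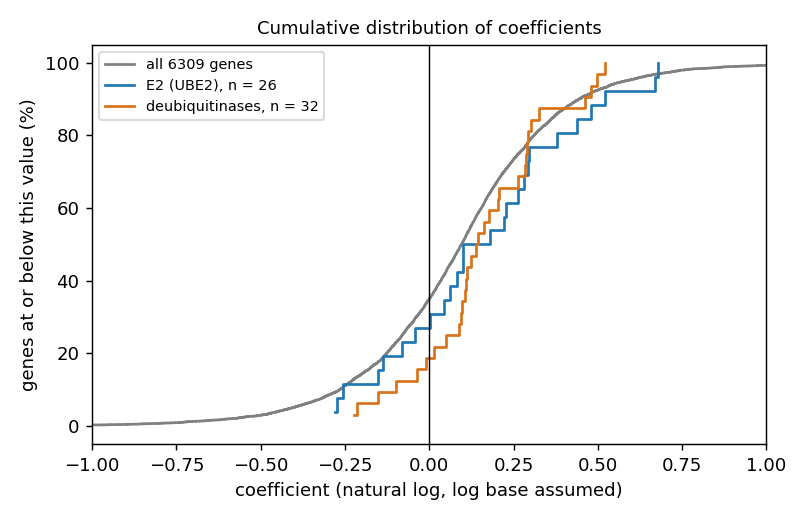
Cumulative share of genes (vertical axis, percent) at or below each coefficient (horizontal axis, natural log, from -1 to 1) for all 6309 genes, 26 UBE2 genes and 32 deubiquitinases. Both classes cross the 50% line near 0.14, to the right of all genes at 0.09, and the UBE2 curve extends further at both ends.

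The UBE2 genes were spread more widely than the deubiquitinases. Their coefficients ran from -0.28 to 0.68 with an SD of 0.27, and those of the deubiquitinases from -0.22 to 0.52 with an SD of 0.19, in the authors' deposited table. The UBE2 genes were also measured less precisely, with a median implied standard error of 0.24 against 0.20. Centred on the all-gene median and divided by its own standard error, the coefficient had an SD of 1.10 among UBE2 genes, 0.95 among deubiquitinases and 1.15 among all genes, where error alone gives 1. The spread within each class was thus close to the size of the errors.

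**Figure D2:**
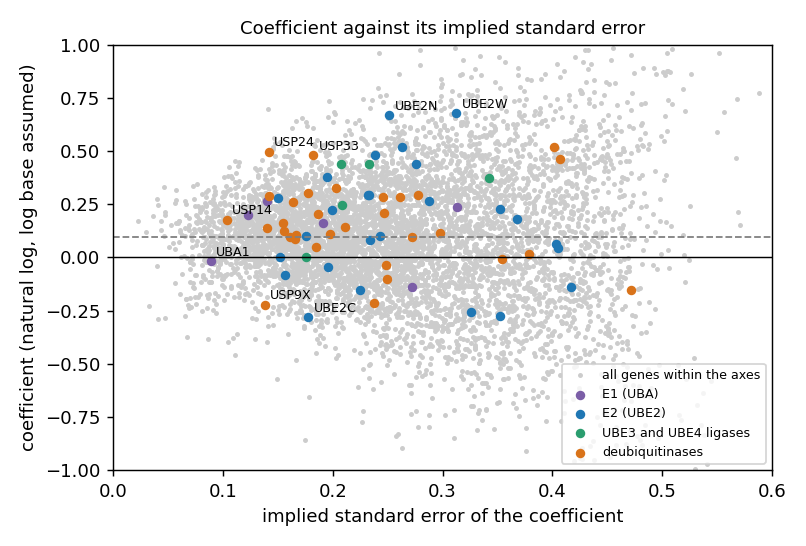
Coefficient of each gene (vertical axis, natural log) against its implied standard error (horizontal axis), with all genes within the axes in grey and the 69 ubiquitin enzymes coloured by class; the dashed line is the median of all genes, 0.09. UBA1 and USP14 lie at the precise end with small coefficients, while UBE2N and UBE2W, the highest members, have errors near the middle of the range.

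The activating enzymes stand at the top of the cascade, and their most precise member showed no large change. UBA1, the main E1 of ubiquitin, had a coefficient of -0.02 ± 0.09 (implied SE) in the authors' deposited table, the smallest error of all members, with an interval from -0.19 to 0.16. On a natural log scale that interval runs from 0.824 to 1.17 times the DMSO level. UBA6, the other E1 that can activate ubiquitin, had 0.27 ± 0.14 (p = 0.0571, adjusted p = 0.499) in the authors' deposited table. UBA1 minus UBA6 was -0.29, with an interval from -0.61 to 0.04 that includes 0.

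Other activating enzymes serve related modifiers. The coefficient of UBA2, the catalytic subunit of the SUMO E1, was 0.20 ± 0.12 in the authors' deposited table, and that of UBA3, its counterpart for NEDD8, was 0.16 ± 0.19. UBA7, the E1 of the interferon-induced modifier ISG15, had 0.24 ± 0.31 in the authors' deposited table. None of the 6 had an unadjusted p below 0.05, and 4 of them lay above the median of all genes.

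UBE2N had the smallest p among the conjugating enzymes. It encodes the E2 that, paired with an inactive partner, builds ubiquitin chains used in signalling and DNA damage tolerance rather than in degradation. Its coefficient was 0.67 ± 0.25 (p = 0.00779, adjusted p = 0.216) in the authors' deposited table, or 1.95 times the DMSO level (interval 1.19 to 3.19) on a natural log scale and 1.59 times if the base were 2. UBE2V2, one of its inactive partners, had 0.10 ± 0.24 in the authors' deposited table. The difference between them was 0.57, with an interval from -0.12 to 1.25.

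UBE2W had the highest coefficient of all 69 members but a wide error. This E2 places single ubiquitins on the amino termini of proteins. It had 0.68 ± 0.31 (p = 0.0300, adjusted p = 0.406) in the authors' deposited table, with an interval of 1.07 to 3.64 times the DMSO level on a natural log scale. UBE2Z, an E2 that is loaded by UBA6 and not by UBA1, had 0.48 ± 0.24 (p = 0.0444, adjusted p = 0.464) in the authors' deposited table. UBA6 and UBE2Z both had positive coefficients, and their difference of -0.21 had an interval from -0.76 to 0.33.

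The 4 conjugating enzymes of endoplasmic reticulum protein degradation all lay above the median of all genes, with a median of 0.41 in the authors' deposited table. UBE2J2, which is anchored in the membrane of the endoplasmic reticulum, had 0.52 ± 0.26 (p = 0.0479, adjusted p = 0.474), and UBE2J1, anchored there as well, had 0.38 ± 0.20 (p = 0.0513) in the authors' deposited table. UBE2G2, which works with ligases of that membrane, had 0.44 ± 0.28 and its relative UBE2G1 had 0.26 ± 0.29 in the authors' deposited table. Only UBE2J2 had an unadjusted p below 0.05, and this grouping was made with the values known, so its median is a description.

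The broad-range conjugating enzymes work with many ligases, and all 6 had coefficients above 0, beside 65.0% of all genes. UBE2D3 had 0.28 ± 0.15 (p = 0.0614) in the authors' deposited table, and UBE2L3, which serves ligases that take ubiquitin onto their own cysteine, had 0.29 ± 0.23. UBE2E1 had 0.0013 ± 0.15, with an interval from -0.30 to 0.30, in the authors' deposited table. UBE2D1, UBE2E2 and UBE2E3 had 0.06, 0.18 and 0.23 with errors of 0.40, 0.37 and 0.35. UBE2D1 and UBE2D3 encode closely similar proteins, and the counting of reads that fit more than 1 such gene is not stated, so these values are uncertain.

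The 2 conjugating enzymes of mitosis were the only role group of UBE2 genes in which no member lay above 0, beside 65.0% of all genes. UBE2C and UBE2S start and extend ubiquitin chains for the anaphase-promoting complex, the ligase that drives exit from mitosis. In the authors' deposited table UBE2C had -0.28 ± 0.18 (p = 0.115, adjusted p = 0.608), the lowest coefficient of all members. UBE2S had -0.08 ± 0.16 in the authors' deposited table. After the median of all genes was subtracted, UBE2C stood at -0.38 with an unadjusted p of 0.0349 and an adjusted p of 0.588. This group holds 2 genes, the groups were made with the values known, and their common direction carries no test. UBE2C minus UBE2S was -0.20 with an interval from -0.66 to 0.27.

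Conjugating enzymes of DNA repair and chromatin, UBE2N and UBE2V2 aside, did not lie on one side. UBE2A and UBE2B are closely similar E2 enzymes that ubiquitinate histones and, with the ligase RAD18, the replication clamp. UBE2A had 0.22 ± 0.20 and UBE2B -0.25 ± 0.33 in the authors' deposited table, a difference of 0.48 with an interval from -0.27 to 1.22. UBE2T, the E2 of the Fanconi anaemia pathway, had -0.04 ± 0.20 in the authors' deposited table. The NEDD8 enzymes UBE2M and UBE2F had 0.10 ± 0.18 and 0.04 ± 0.41 in the authors' deposited table.

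The remaining conjugating enzymes included some of the least precise values. UBE2O, a very large E2 that acts as its own ligase, had 0.30 ± 0.23 in the authors' deposited table, and UBE2Q1 had 0.08 ± 0.23. UBE2K, which elongates degradation chains, had -0.15 ± 0.23, UBE2R2, a partner of cullin ligases, had -0.14 ± 0.42, and UBE2H, the E2 of the CTLH ligase complex, had -0.27 ± 0.35 in the authors' deposited table. Intervals of all 5 included 0.

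**Figure D3:**
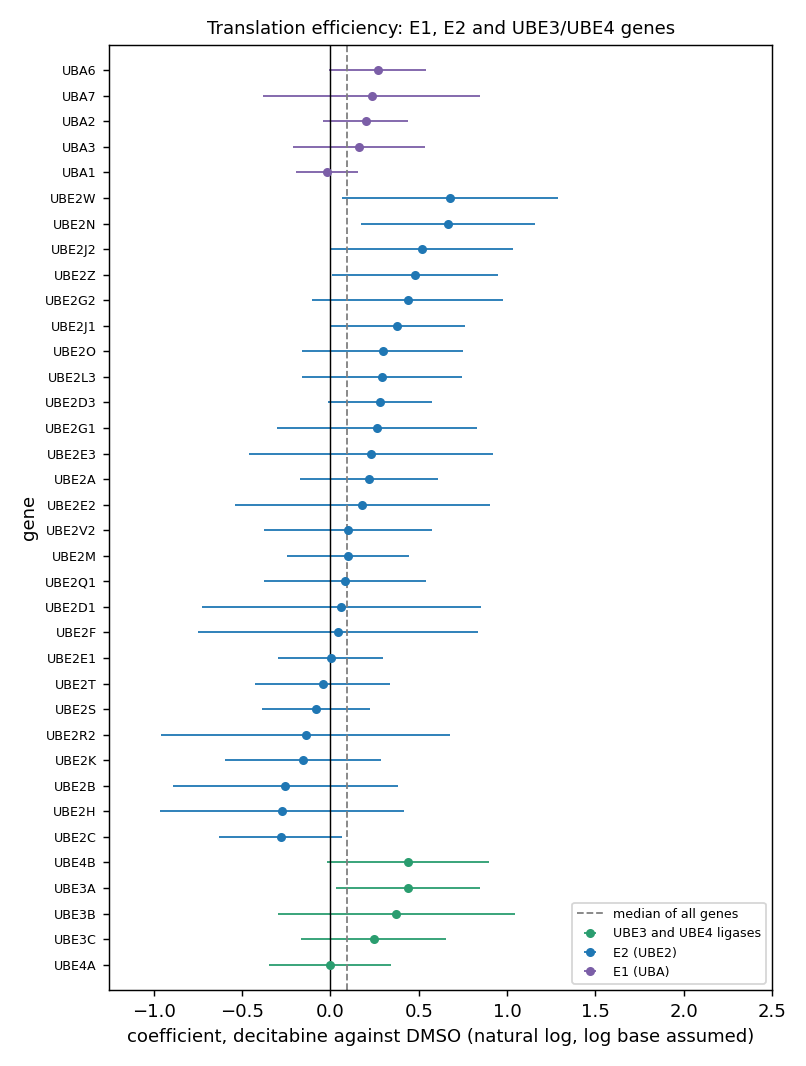
Coefficients (points, horizontal axis, natural log) with 95% intervals from the implied standard errors (lines) for 5 E1 genes, 26 UBE2 genes and 5 UBE3 and UBE4 genes, ordered by coefficient within each class; the solid line is 0 and the dashed line the median of all genes, 0.09. The intervals of UBE2W, UBE2N, UBE2J2, UBE2Z and UBE3A lie above 0, and no interval lies below 0.

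The UBE3 and UBE4 ligases had the highest median of the classes, 0.37 in the authors' deposited table, from 5 genes. UBE3A, the HECT ligase whose loss from the maternal chromosome causes Angelman syndrome, had 0.44 ± 0.21 (p = 0.0352, adjusted p = 0.426) in the authors' deposited table. UBE4B, a U-box ligase that extends existing chains, had 0.44 ± 0.23 (p = 0.0591) in the authors' deposited table. The HECT ligases UBE3B and UBE3C had 0.37 ± 0.34 and 0.25 ± 0.21, and UBE4A had 0.00028 ± 0.18, in the authors' deposited table. UBE4A thus lay below the other 4, although UBE4A minus UBE4B, -0.44, had an interval from -1.01 to 0.13.

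USP24 had the smallest p of all members. It encodes a very large deubiquitinase, reported to act on proteins of the DNA damage response. Its coefficient was 0.50 ± 0.14 (p = 0.00046, adjusted p = 0.0535) in the authors' deposited table, or 1.64 times the DMSO level (interval 1.24 to 2.17) on a natural log scale and 1.41 times if the base were 2. By p-value it ranked 53 of 6309 genes, just outside the 51 that passed. It passed at the authors' q-value, 0.0444, a rule that 0.951% of all genes met. The q-value is 0.83 times the adjusted p for every gene, so this pass is not separate evidence. USP24 also passed at an adjusted p below 0.1, which 1.36% of all genes met. It passed as well when the least precise 25% of genes were left out before adjustment (adjusted p = 0.0413 from the p-values of the authors' deposited table). The share of the 4732 genes left that passed under this filter was not computed. Centring on the median left USP24 short of the threshold (adjusted p = 0.252 from the coefficients of the authors' deposited table).

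USP33 and its paralog USP20 bind the VHL ligase and regulate receptor recycling. USP33 had 0.48 ± 0.18 (p = 0.00837, adjusted p = 0.221) in the authors' deposited table, with an interval from 1.13 to 2.31 times the DMSO level on a natural log scale. USP20 had 0.20 ± 0.19 in the authors' deposited table, and USP20 minus USP33 was -0.28 with an interval from -0.79 to 0.23. USP33 and USP24 lie on the same chromosome and were among the more precise deubiquitinases.

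USP7 is of interest for the drug used, since it is known to stabilise DNMT1, the maintenance methyltransferase that decitabine traps, as well as MDM2 and p53. Its coefficient was 0.29 ± 0.14 (p = 0.0420, adjusted p = 0.457) in the authors' deposited table, or 1.34 times the DMSO level (interval 1.01 to 1.77) on a natural log scale. After the median of all genes was subtracted its unadjusted p was 0.172. USP47, its closest relative, had 0.11 ± 0.20 in the authors' deposited table.

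The lowest deubiquitinase was USP9X, an X-linked enzyme known to stabilise the survival protein MCL1 among others. It had -0.22 ± 0.14 (p = 0.108, adjusted p = 0.597) in the authors' deposited table, or 0.801 times the DMSO level (interval 0.611 to 1.05) on a natural log scale. Centred on the median of all genes it stood at -0.32 with an unadjusted p of 0.0217 and an adjusted p of 0.509. USP9X and USP24 have similar errors and lie at opposite ends of the well-measured deubiquitinases; this contrast was chosen after the values were seen and was not tested.

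Deubiquitinases of membranes and organelles had the lowest median of the 4 deubiquitinase groups, 0.03 for 8 genes of the authors' deposited table, with USP33 at the top and USP9X at the bottom. USP8, which sorts receptors at endosomes, had -0.22 ± 0.24, and USP30, bound to the mitochondrial outer membrane, had -0.15 ± 0.47, the largest error of all members, in the authors' deposited table. USP32 had -0.04 ± 0.25, and USP19, which has a form anchored in the endoplasmic reticulum, had 0.09 ± 0.17 in the authors' deposited table. USP25 had 0.29 ± 0.28 in the authors' deposited table. The groups were made with the values known, and their difference carries no test.

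Deubiquitinases that recycle chains at or near the proteasome had a median of 0.24 for 4 genes in the authors' deposited table. USP14, which trims chains on the proteasome itself, was the most precise deubiquitinase, with 0.18 ± 0.10 (p = 0.0879) in the authors' deposited table and an interval from -0.03 to 0.38. USP5, which takes apart free chains, had 0.30 ± 0.18 (p = 0.0893), and its paralog USP13 had -0.0092 ± 0.35 in the authors' deposited table. UCHL3, which cleaves small adducts from ubiquitin and NEDD8, had 0.33 ± 0.20 (p = 0.109) in the authors' deposited table. None of the 4 had an unadjusted p below 0.05.

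The 12 deubiquitinases grouped under genome and chromatin had a median of 0.14 in the authors' deposited table. Of these, 11 were above 0, beside 65.0% of all genes, and USP7 alone had an unadjusted p below 0.05. USP1, which acts on FANCD2 and the replication clamp, had 0.09 ± 0.16, and USP22, the histone deubiquitinase of the SAGA complex, had 0.14 ± 0.14 in the authors' deposited table. USP10, which acts on p53 and binds G3BP1, had 0.12 ± 0.16, and USP36, the nucleolar deubiquitinase, had 0.15 ± 0.21 in the authors' deposited table. The histone deubiquitinases USP16 and USP21 had 0.21 ± 0.25 and 0.46 ± 0.41 in the authors' deposited table. USP28, known to stabilise MYC, had 0.29 ± 0.26, USP11 0.10 ± 0.27 and USP37 -0.10 ± 0.25 in the authors' deposited table. USP42 had the highest deubiquitinase coefficient, 0.52 ± 0.40 (p = 0.195), in the authors' deposited table, with an interval from -0.27 to 1.31 that made it far less certain than USP24.

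All 8 remaining deubiquitinases had coefficients above 0, USP24 among them, beside 65.0% of all genes. This set is what the other groups left, and the groups were made with the values known. USP4 had 0.26 ± 0.16 and USP15, its paralog, had 0.05 ± 0.19 in the authors' deposited table. USP34, a giant deubiquitinase linked to Wnt signalling, had 0.16 ± 0.15, USP38 had 0.01 ± 0.38 and USP39, a splicing factor of the family that is thought to lack deubiquitinase activity, had 0.10 ± 0.17 in the authors' deposited table. The OTU enzymes OTUD5 and OTUD6B had 0.28 ± 0.25 and 0.11 ± 0.30 in the authors' deposited table.

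**Figure D4:**
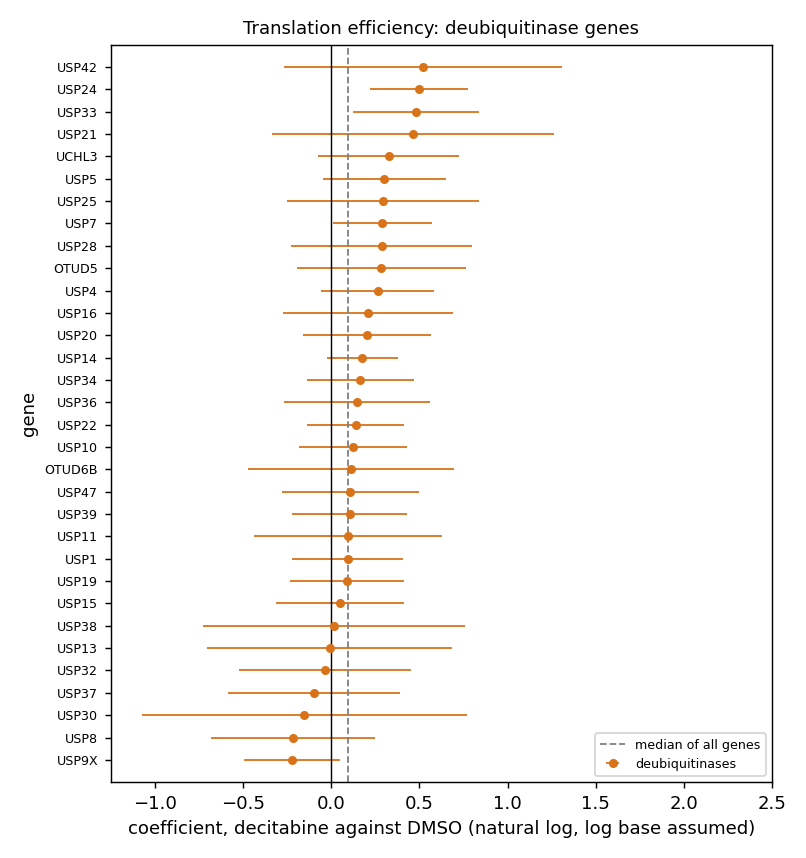
Coefficients (points, horizontal axis, natural log) with 95% intervals from the implied standard errors (lines) for the 32 deubiquitinases, ordered by coefficient; the solid line is 0 and the dashed line the median of all genes, 0.09. The intervals of USP24, USP33 and USP7 lie above 0, and USP42 and USP21 have equally high points with intervals that include 0.

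Related genes did not separate from each other within their errors. The difference of coefficients was computed for 21 pairs of paralogs, relatives or partners, 11 of them paralogs, and the interval included 0 in all 21. The largest differences in size were 0.57 for UBE2N minus UBE2V2, 0.48 for UBE2A minus UBE2B and -0.44 for UBE4A minus UBE4B. These intervals take the errors of both genes as independent, and they leave room for large differences: the narrowest ran from -0.61 to 0.04, for UBA1 minus UBA6. USP25 and USP28, which are paralogs, differed by 0.0069 with an interval from -0.74 to 0.75.

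**Figure D5:**
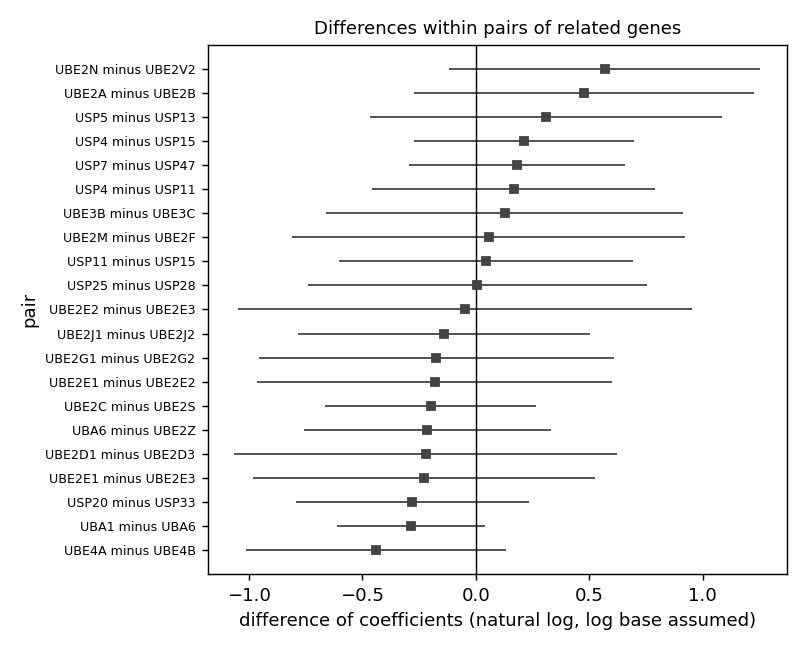
Difference of the coefficients of 2 related genes (squares, horizontal axis, natural log) with 95% intervals (lines), for 21 pairs ordered by size. Every interval crosses 0, from UBE2N minus UBE2V2 at 0.57 to UBE4A minus UBE4B at -0.44.

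Precision limited what could be seen. For 37 of the 69 members the interval lay wholly within a 2-fold change in either direction on a natural log scale. The same held for 3144 of all 6309 genes, so the members' share was near the background. By class these were 5 of 6 activating enzymes, 10 of 26 UBE2 genes, 2 of 5 ligases and 20 of 32 deubiquitinases. The intervals of the other members reached a 2-fold change or beyond, and most of these included 0 as well.

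After the median of all genes was subtracted, 5 members had an unadjusted p below 0.05. USP24, UBE2N and USP33 were higher and USP9X and UBE2C lower. By that rule 3.69% of all genes were higher and 4.25% lower, 7.94% in either direction, so 5 of 69 members was near the background. The centred coefficients were 0.40 for USP24, 0.57 for UBE2N and 0.39 for USP33. None of the 5 passed after adjustment (lowest adjusted p 0.252), where 0.586% of all genes did.

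The starts of these genes were examined because mRNAs that begin with a C followed by pyrimidines, the terminal oligopyrimidine motif, can be regulated at translation as a group. RefSeq promoter entries (GRCh38.p14) were matched by symbol for 56 of the 69 members, with 77 annotated starts. A C at the first transcribed base followed by 4 bases that are each C or T, on the transcribed strand, was found at 2 starts, 2.60%, against 5.51% of 7329 starts of genes in the table and 4.07% of all 35116 starts. They belonged to UBE4B and to 1 of 6 starts of UBE2D3. Windows of 30 bases, 15 before and 15 from the start, are shown for both and for members with an unadjusted p below 0.05 that have 1 annotated start, so that the opening bases can be compared; capitals mark the first 5 transcribed bases.
UBE4B, chr1:10032943-10032972, plus strand: cgggggtcacgtgatCCCTTtcaaagatgg
UBE2D3, chr4:102826844-102826873, minus strand: ctctcccacccgggtCTCTTcctttctaga
UBE2N, chr12:93441933-93441962, minus strand: gagcccgggacttccACTCGtgcgtgaggc
UBE2J2, chr1:1273840-1273869, minus strand: agcagaagctaggctGGTTCcgccccgcga
UBE2Z, chr17:48908392-48908421, plus strand: ggagggggtggggacACTCTggcccggttc
USP33, chr1:77759838-77759867, minus strand: gcctgcggcggccccGGAGAcaccggaagg
UBE4B and UBE2D3, with the pyrimidine openings, had coefficients of 0.44 and 0.28 in the authors' deposited table, both above the median of all genes. The openings of UBE2N, UBE2J2, UBE2Z and USP33 begin with A or G, as most starts do. Only 13.7% of starts of genes in the table and 7.79% of members' starts begin with C or T. Which start HL-60 cells use was not examined, and a match of letters is a description only. The dinucleotide CG, the site of DNA methylation, occurred a median of 33 times in the 300 bases around the members' starts (35 for UBE2 genes and 30.5 for deubiquitinases), against 26 for starts of all genes in the table.

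On the genome, as whole-gene spans of RefSeq GRCh38.p14, USP24 lies on chromosome 1 from 55066359 to 55215364 and USP33 on chromosome 1 from 77695987 to 77759852. UBE2N lies on chromosome 12 from 93405684 to 93441947, USP7 on chromosome 16 from 8892097 to 8963906, UBE2C on chromosome 20 from 45812644 to 45816952, and USP9X on chromosome X from 41085445 to 41236579.

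Other genes of the pathway were looked at through 5 lists of 79 symbols, of which 51 were in the table. Some symbols are older names of a gene also listed under its current name, so the lists hold fewer genes than symbols. None of the 51 had an adjusted p below 0.05 there. Without adjustment 5 were higher and 1 lower, 11.8% of the 51 beside 10.3% of all genes, a share near the background. Their median was 0.08, against 0.16 for the 69 members and 0.09 for all genes. Genes that encode ubiquitin itself were measured precisely: RPS27A, which makes ubiquitin fused to a ribosomal protein, had -0.07 ± 0.09, and UBB had 0.08 ± 0.12 in the authors' deposited table. Both lay below the median of all genes, and their intervals included 0.

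A further 14 genes of deubiquitinase families lay outside the name rule, and some of them, such as PAN2, USPL1, COPS5 and ALG13, may not act on ubiquitin. Of the 14, 2 were higher and 1 lower without adjustment, beside 8.35% higher and 1.95% lower of all genes. TNFAIP3, the NF-kB inhibitor A20, had 1.20 ± 0.40 (p = 0.00294, adjusted p = 0.152), and PSMD14, the deubiquitinase of the proteasome lid, had 0.38 ± 0.18 (p = 0.0295, adjusted p = 0.406) in the authors' deposited table. ZUP1, specific for the chains that UBE2N builds, had -0.65 ± 0.33 (p = 0.0472, adjusted p = 0.471) in the authors' deposited table. Addition of the 14 genes to the 32 deubiquitinases left the class median at 0.14.

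Of 8 measured cofactors of deubiquitinases, 2 were above the median of all genes, both with an unadjusted p below 0.05. Of all genes, 10.3% had such a p in either direction and 8.35% were higher. The lists in this paragraph are small and were chosen with earlier results known, so their counts carry no test. KAT2A, the acetyltransferase of SAGA, had 0.56 ± 0.23 (p = 0.0140, adjusted p = 0.298), and G3BP1, a partner of USP10, had 0.20 ± 0.10 (p = 0.0466, adjusted p = 0.467) in the authors' deposited table. WDR48, the activator of USP1, had -0.13 ± 0.23 in the authors' deposited table. In the ubiquitin-like list of 15, NAE1, the partner of UBA3 in the NEDD8 E1, had 0.33 ± 0.17 (p = 0.0443, adjusted p = 0.464) in the authors' deposited table. SAE1, the partner of UBA2, had -0.07 ± 0.15 in the authors' deposited table. None of 11 p97 and shuttle genes had an unadjusted p below 0.05; VCP, p97 itself, had 0.04 ± 0.10 in the authors' deposited table.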

How the data were processed

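The deposited table holds, per the file headers, a coefficient for the drug, its p-value, an adjusted p-value and a q-value for 1 transcript of each gene. The coefficient was taken as a natural log because the deposited headers carry R's names for a generalised linear model; the log base is not stated. Bowtie2, SAMtools 1.11, UMI-tools 1.1.1 and hg38 appear in the submitters' processing notes; no source used here gives their roles, the model program, count filter or library scaling. The deposited adjusted p-value equals Benjamini-Hochberg over all 6309 genes. Implied standard errors are the coefficient over the z of its p-value. A run on simulated data took its p-values from the same formula, so it checked the arithmetic only. It cannot show whether the authors' p-values follow that formula. Python 3.11.15, numpy 2.4.6, pandas 2.3.3 and scipy 1.17.1 were used.

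No count test could be run, so the authors' test was used over all genes. Classes were summarised by medians and counts, without tests. Named genes are members with unadjusted p below 0.05, the 5 highest, lowest and most precise UBE2 genes and deubiquitinases, and genes listed by name; the others are given within their groups. Members, lists, pairs and groups were chosen with earlier results of these data known. Alternatives were other thresholds, adjustments, centrings, class summaries and members, and removal of imprecise genes. Some genes are counted in their class and not reported here singly.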

Additional observations from a re-analysis of the deposited data

How the results depend on the processing

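No paired analysis was possible because the table has no values per library; for the same reason no replicate could be left out, and library depth is unknown. Restriction of the background by protein length was not run, since no protein lengths were used here. The count of members past adjusted p below 0.05 was 0 as deposited, with both centrings, at 0.01 and with the Benjamini-Yekutieli adjustment. It was 1, USP24, higher with drug, in 3 settings. At 0.1, which 1.36% of all genes met, this follows from the looser threshold. With the authors' q-value (0.951% of all genes) it follows from a value 0.83 times the adjusted p for every gene. Without the least precise 25% of genes fewer genes were tested, and the share of all genes left that passed was not computed. The 8 members at unadjusted p below 0.05, all higher, became 5 with either centring, 3 higher and 2 lower, since each coefficient was shifted. The UBE2 median, 0.05 above that of all genes, became 0.13 above it without the NEDD8 and inactive enzymes. Without the least precise 25% of genes, which removed 6 of 26 UBE2 genes, it became 0.15 above the median of the genes left. The difference of UBE2 minus deubiquitinases became 0.078 and 0.10 in these settings. Removal of the least precise 50%, a filter chosen after seeing the data, left 15 UBE2 genes. The UBE2 median then stood 0.0016 above that of the genes left, and the difference was -0.04. On the z scale that difference was -0.28, and the deubiquitinases stood 0.40 above all genes; the cause was not tested. The sign of the difference between the classes therefore depended on the setting. Their other values moved by less than the SD of the class over the root of its size. No result changed direction against all genes or, where a filter was used, the genes left.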
